A study of Mus musculus with 7 samples.

Results

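The genes described here are 35 mouse genes: Rest, its corepressor gene Rcor1, and 33 genes of neuronal function that are commonly listed as REST targets. They were followed in open chromatin and in TRF2 binding of muscle stem cells (MuSCs), out of 21938 protein-coding genes of GENCODE M21. The members were taken from a fixed list of names and not from any measured value, but the list was chosen with earlier results of these data known. For each gene the window was the gene body plus 3 kb either side of every annotated transcript start, and its promoter was the 3 kb either side of a start. The median window was 43868 bp over the 35 genes and 20611 bp over all coding genes. Shares of genes with a match or peak in the window were not adjusted for window length. By role, the list holds 2 genes of REST and its corepressor, 6 of vesicle release, 5 of secretory granules and secreted factors, 9 of ion channels and glutamate receptors, 4 of adhesion and the cell surface, 6 of the cytoskeleton, and 3 of RNA and calcium binding.

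REST is a zinc finger repressor that keeps neuronal genes silent in cells that are not neurons. It binds a long DNA element called RE1, which has a left and a right arm, and it recruits histone deacetylases and demethylases, in part through the scaffold protein RCOR1. TRF2 is the telomere-binding protein encoded by Terf2, and in other cells it has been linked to the stability of the REST protein. Neither REST binding nor RNA was measured in the lists used here, so the name of the gene set rests on the list. The DNA sequence is not an independent check of the name, since the list is one of REST targets.

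The study compared chromatin of MuSCs, the stem cells that lie along muscle fibers and repair them. ATAC-seq, in which a transposase cuts accessible DNA, was run on 2 Control and 2 TRF2KO libraries, labelled hind limb and 0 hr, from uninjured mice. In TRF2KO mice floxed TRF2 alleles were deleted with tamoxifen by a Cre recombinase driven from Pax7. The deletion thus arises only in cells with an active Pax7 gene when tamoxifen is given. All experimental mice had a C57BL/6 background. In the labels, the genotype given for TRF2KO libraries is Wildtype, and their titles were followed here. The deletion itself was not checked here. The alleles of the Control ATAC mice, their age at sampling and the number of animals per library are not given in the sources used here. The libraries of a group are described as biological replicates. CUT&Tag, in which an antibody guides the transposase to a bound protein, was run with anti-TRF2 (2 libraries) and with IgG (1 library) on wild-type MuSCs labelled 3 days after notexin injury of the tibialis anterior. The methods describe those mice as Pax7-Cre animals with a tdTomato reporter and give a shorter time after injury, so the time is uncertain. TRF2 binding and ATAC values thus come from different states of muscle.

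The MACS lists held 84102 to 100521 ATAC peaks per library, 12290 and 15479 TRF2 peaks, and 656 IgG peaks. A peak's fold is its summit pileup of fragments over a background. For ATAC, the background solved at the members' promoters was nearly the same for every gene of a library. It was 3.35 and 4.56 fragments in Control 1 and 2, and 3.37 and 3.41 in TRF2KO 1 and 2. These ATAC folds thus follow the raw summit pileup of the library and are not corrected for the locus. A fold is a property of the summit and for a single peak does not grow with gene length. The promoter fold of a gene was that of its strongest peak near any annotated start. It can thus rise with the number of starts, which ran from 1 (as in Syt4) to 23 (Map2) among the members. ATAC peaks that shared at least 1 bp were merged into 122720 regions, and 61610 of these (50.2%) were found in all 4 libraries. The windows of the 35 genes held 135 regions, and 66 of these (48.9%) were found in all 4. All 8 markers of MuSCs (such as Pax7, Myf5 and Calcr) had a promoter peak in all 4 libraries. Such peaks were also found at 2 of 4 Schwann cell, 2 of 3 endothelial, 1 of 3 immune, 2 of 3 fibro-adipogenic and 2 of 3 neuron markers. The sort took cells without CD45, CD31, CD11b and Sca1, which mark immune, endothelial and fibro-adipogenic cells, and with α7-integrin and VCAM or CD34. A possible share of other cells in the values of the neuronal genes was not tested, and in bulk samples a fraction of cells with open DNA and less open DNA in every cell cannot be told apart.

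The RE1 element was searched as the left arm TTCAGCACC and the right arm GGACAGCGC, 9 letters each with 2 bases between them, on both strands and with at most 3 mismatches. In the windows of 22 of the 35 genes (62.9%) at least 1 match was found, compared with 5.18% of coding genes, and 19 (54.3%) had a match at a promoter, compared with 2.28%. Apart from Rest and Rcor1, the genes were chosen as listed REST targets. An excess of the REST element may follow from that choice and is no independent test of the list. Among 12 other neuronal genes that are not on the list (such as Syn1 and Syp, of synaptic vesicles), 7 had a match in the window. Among 21 REST cofactor genes, a list that also holds Btrc and Usp7, which act on the stability of REST, 2 did. The remaining 13 genes, Rest and Rcor1 among them, had no match at this setting, which says only that these letters are not in the window.

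The matches in the gene set numbered 24. Sequences below are shown so that matches inside and outside ATAC peaks can be read side by side. Their arms do not separate them, since those of Grin1, Chga and Scn2a have the same letters. Both arms are in capitals, mismatched letters included, with 5 bases of GRCm38 on each side, read 5′ to 3′ on the strand of the match.
Matches inside an ATAC peak of all 4 libraries were those of Snap25, Rundc3a, Vgf, Grin1, Hcn3 and Dner.
Snap25: gacctTTCAGCACCgcGGACAGCGAtccgg
Rundc3a: tccggCTCAGCACCtcGGAGAGCTCcctcc
Vgf: ccggcTTCAGCACGctGGACAGCGCccgcg
Grin1: tacgcTTCAGCACCtcGGACAGCACccgcc
Matches inside a peak of some libraries were those of Kcnip2 and Calb1 (3 libraries each), Chga (2) and Gria2 (1).
Calb1: aacggAGCAGCACCgcGGACAGCGCcccgc
Chga: gaggaTTCAGCACCtcGGACAGCACcaggt
Gria2: tcgatTTTAGCACCgcGGACAGCGCtttgg
Matches outside every ATAC peak included the closest in letters, that of Stmn2, and those of Bdnf and Scn2a.
Stmn2: gccatTTCAGCACCacGGACAGCGCttctg
Bdnf: gtccaTTCAGCACCttGGACAGAGCcagcg
Scn2a: tggctTTCAGCACCacGGACAGCACcagaa

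In all, 10 of the 24 matches (41.7%) lay in an ATAC region and 6 (25.0%) were inside a peak of each of the 4 libraries. Over the genome, 426 of 2144 matches (19.9%) lay in an ATAC region and 216 (10.1%) were inside a peak of all 4. The sets are not alike in position. The genome count takes matches anywhere, while 19 of the 35 genes had a match at a promoter. Every member match in an ATAC region was at a promoter, and shares of promoter matches alone were not compared. Counted by gene, 10 members (28.6%) had a match in an ATAC region, against a background of 1.5% of coding genes. Of the 12 other neuronal genes 5 had it, and none of the 21 REST cofactor genes did. Of all 122720 ATAC regions 388 (0.316%) held a match, and of the 135 regions of the 35 listed genes 10 (7.41%) did. As the genes were listed as REST targets, neither excess over the background is an independent test of the list.

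The match closest to the element was not among the open ones. Stmn2, a microtubule-regulating stathmin, had the only match without a mismatch, at chr3:8508230-8508249, 1121 bp upstream of the gene start, and no ATAC peak covered it in any library. The nearest summits lay 2080 to 2959 bp away. Of the 8 matches with 1 mismatch 5 were in a region, of the 7 with 2 mismatches 3 were, and of the 8 with 3 mismatches 2 were. Over the genome, 9 of 16 perfect matches (56.2%) and 42 of 136 with 1 mismatch (30.9%) were in a region.

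At 3 genes with a peak in all 4 libraries the match sat near the summit of the ATAC peak. In Snap25, a SNARE protein of vesicle fusion, the match at chr2:136714338-136714357 lay in an intron, 894 bp downstream of the gene start, and the summits of the 4 libraries were 21, 27, 23 and 23 bp from its centre (Control 1, Control 2, TRF2KO 1, TRF2KO 2, in this order for all ATAC values). In Vgf, a neuropeptide precursor, the match at chr5:137030275-137030294 was in an exon and 11 bp from an internal start, with summits at 29, 31, 29 and 24 bp. In Rundc3a the match at chr11:102393452-102393471 was in an exon, 58 bp from the gene start, with summits at 17, 26, 30 and 27 bp. Of 2 other peak callers, GoPeaks had a promoter region in all 4 libraries at each of these genes. SEACR had it in all 4 at Vgf and Rundc3a and in 0 at Snap25.

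Where a weaker peak covered the match, its summit was similarly close at Calb1, Chga and Gria2, and farther away at Grin1. In Calb1, a calcium buffer, the match at chr4:15881291-15881310 was 36 bp downstream of the gene start, with summits 36, 33 and 33 bp away in the 3 libraries that had a peak and none in TRF2KO replicate 1. In Chga, a granin of secretory granules, at chr12:102555238-102555257, the 2 Control summits were 25 and 24 bp away, and the peak of TRF2KO replicate 2 did not cover the match. Gria2, the AMPA receptor subunit, had its match at chr3:80802989-80803008 inside a peak of TRF2KO replicate 1 only, with a fold of 4.57 and a summit 28 bp away. In Grin1, the obligatory NMDA receptor subunit, at chr2:25319015-25319034, the 4 summits were 64 to 69 bp away. GoPeaks had a promoter region in 4 libraries at Grin1, 2 at Calb1, 2 at Gria2 and 0 at Chga. SEACR had it in 4 at Grin1 and in 0 at Calb1, Gria2 and Chga.

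Over the 6 matches inside a peak of all 4 libraries, the median distance to the summit was 47.0 bp, and 3 lay within 50 bp. Over the 210 other such matches of the genome the median was 103 bp, and 46 (21.9%) lay within 50 bp. With 6 matches this is a description only. In Hcn3, at chr3:89159337-89159356, the nearest summits lay 57 to 931 bp away. In Kcnip2, at chr19:45813955-45813974, the 3 libraries with a peak over the match had summits 427 to 467 bp away. In Dner, at chr1:84696352-84696371, the distances ran from 15 to 420 bp.

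**Figure D1:**
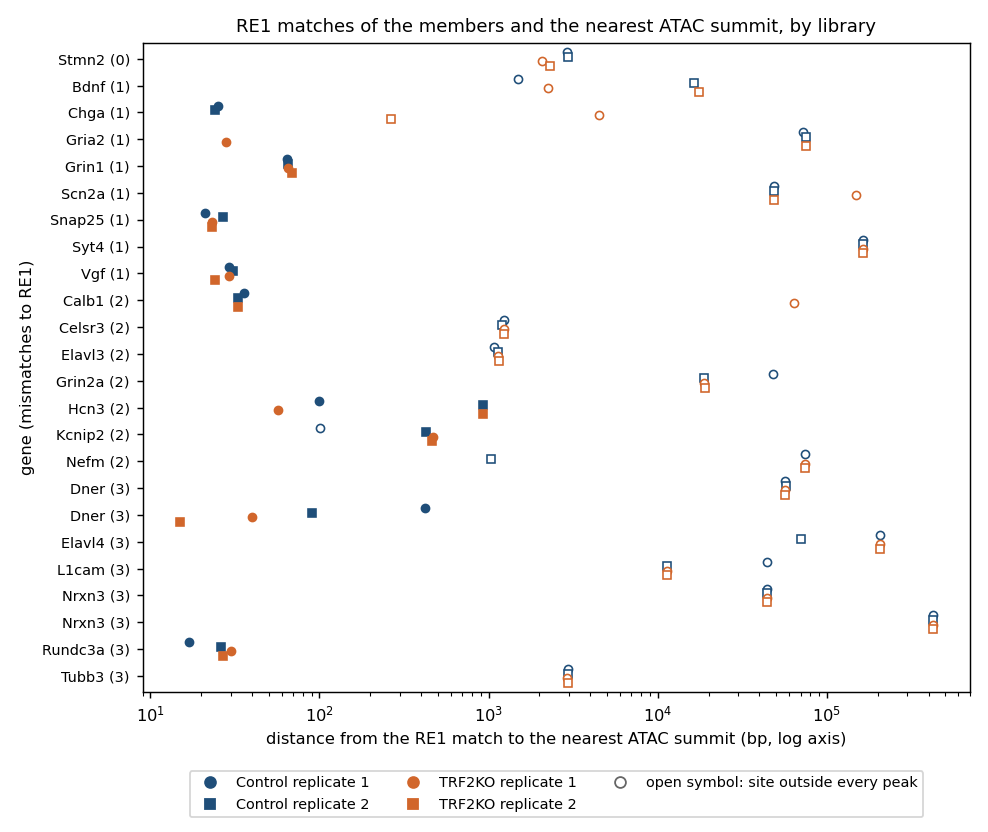
Distance in bp (log axis) from each of the 24 RE1 matches to the nearest ATAC summit, for the 2 Control (blue) and 2 TRF2KO (orange) libraries, with filled symbols where a peak covers the match. Rows are ordered by mismatches, given in parentheses; the matches of Snap25, Vgf, Rundc3a and Calb1 sit within 36 bp of a summit where a peak was called, while the perfect match of Stmn2 is 2080 bp or more from any.

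At the level of promoters, 23 of the 35 genes (65.7%) had an ATAC peak in all 4 libraries, close to the background of 67.7% of coding genes. A further 8 genes (22.9%) had a peak in some libraries, compared with 5.87% of coding genes, and 4 genes (11.4%) had none, compared with 26.4%. All 21 REST cofactor genes and 11 of the 12 other neuronal genes had a promoter peak in all 4 libraries. With the SEACR lists in place of MACS 13 of the 35 genes had a promoter region in all 4 libraries, against 53.7% of coding genes. The 4 genes without any promoter peak were Syt4 and Scg3, of secretory vesicles, Nefl, the light neurofilament chain, and Elavl4, a neuronal RNA-binding protein. GoPeaks and SEACR also called no promoter region in them.

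The peaks that were present were low for promoters. Each fold was ranked as a percentile of all peaks of its own library and averaged over the 4 libraries. The median over the 23 genes was 69.2 (21.3 to 99.2), compared with 89.0 over the 14858 coding genes with a promoter peak in all 4, 92.7 over the REST cofactor genes and 59.5 over the other neuronal genes. Ordering the coding genes into 5 equal groups by this rank placed 12 of the 23 in the lowest group and 8 in the next, and 1 each in the third (Celsr3), the fourth (Map2) and the highest (Rcor1). Base composition at the gene start was higher in GC, with a median GC content of 58.9% over the 35 genes and 54.7% over all coding genes, 500 bp either side of the start, and a CpG observed-to-expected ratio of 0.633 against 0.552.

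**Figure D2:**
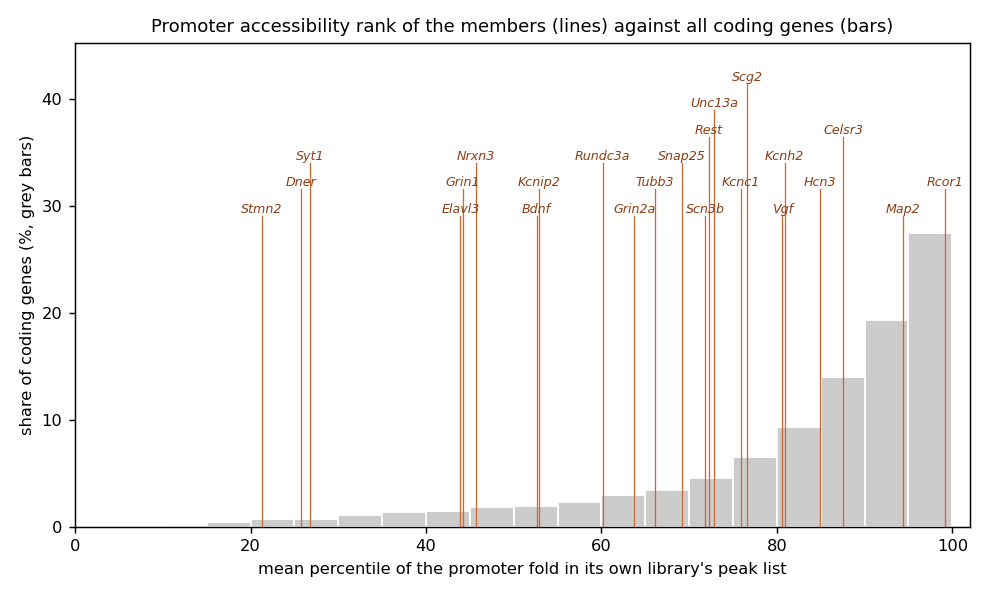
Share (%) of the 14858 coding genes with a promoter peak in all 4 ATAC libraries (grey bars, 5 percentile points wide) by mean percentile of the promoter fold, with the 23 members as orange lines whose height only separates the names. The bars rise toward the right edge, with a median of 89.0, while 20 of the 23 lines lie at or below 85.3, the upper bound of the second of the 5 groups.

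Rest itself had a promoter peak in all 4 libraries that ranked low among coding genes. Its promoter region, chr5:77264957-77267065 over the start and the beginning of the gene, had folds of 15.0 and 19.3 in Control and 17.2 and 19.97 in TRF2KO, from summit pileups of 64 to 106 fragments. The ranges of the genotypes overlapped. Its mean percentile was 72.2, near the lower bound (71.4) of the second lowest of the 5 groups. Rcor1 stood at the other end, with folds of 144, 125, 162 and 153 at chr12:111037854-111040683 and the highest mean percentile of the set, 99.2. Here both TRF2KO values were above both Control values.

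Among the genes of vesicle release, Snap25 had promoter folds of 15.9, 14.0, 16.0 and 15.2, and Unc13a, which primes vesicles, had 17.95, 17.3, 20.4 and 16.8, of which the first was at an internal start and the others at the gene start. Rundc3a had 12.0, 11.9, 11.4 and 8.62. Syt1, the calcium sensor of vesicle fusion, was among the 3 lowest of the 23 genes with 4 values, at 4.37, 4.86, 5.03 and 3.63, from 15 to 26 fragments at the summit. Rab3c, a small GTPase of vesicles, had folds of 5.06, 4.499 and 4.57 and no peak in TRF2KO replicate 2. In this group the genotypes overlapped in every gene with 4 values except Rundc3a, in which both TRF2KO values were lower by a margin smaller than the gap between the TRF2KO libraries.

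Among the secreted factors, Scg2, a granin, had its peak at the gene start, with folds of 22.1, 23.4, 20.4 and 21.3. Vgf had 28.8, 24.5, 29.0 and 26.1 at the internal start described above. Bdnf, the neurotrophin, had 8.05, 9.54, 10.7 and 6.58, and the peak lay away from its RE1 match, which no peak covered. Chga had 4.37, 3.78 and 3.18, with no peak in TRF2KO replicate 1. Among the 3 genes of this group with 4 values, Scg2 was the one in which the TRF2KO folds did not overlap those of Control, and both were lower. The single TRF2KO fold of Chga was also below both Control folds.

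Among channels and receptors, Hcn3, a pacemaker channel, had folds of 36.8, 34.4, 38.0 and 32.2 and the highest mean percentile of the group, 84.9. Kcnc1, a potassium channel, had 21.4, 19.6, 24.5 and 18.6, and Scn3b, a sodium channel beta subunit, had 18.2, 16.0, 17.4 and 17.2. Grin2a, an NMDA receptor subunit, had 14.7, 12.96, 10.7 and 11.3, and Kcnip2, which binds potassium channels, had 9.90, 9.18, 8.005 and 7.49. In Grin2a, Kcnip2 and Kcnh2, a gene described below, both TRF2KO folds were lower than both Control folds. The strongest promoter peak of Kcnh2 and of Scn3b was not at the same start in every library, since these genes have several. Grin1 had 6.21, 7.38, 7.32 and 6.13, and its genotypes overlapped. Scn2a, a sodium channel, was weak with 5.06, 3.24 and 4.09 and no peak in TRF2KO replicate 1, and Gria2 had a peak in TRF2KO replicate 1 alone.

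In the remaining genes the spread was wide. Map2, a microtubule-binding protein, had folds of 70.9, 62.8, 86.2 and 77.8 at the gene start, and Celsr3, a large cadherin, had 44.6, 37.1, 47.8 and 40.6 at an internal start. With Rcor1 they were the 3 highest of the set. Tubb3, a neuronal tubulin, had 13.3, 11.7, 14.6 and 14.5. Dner, a surface protein of neurons, with 5.75, 3.96, 3.43 and 4.54, and Stmn2, with 3.68, 4.32, 3.89 and 3.86, were with Syt1 the 3 lowest by mean percentile among the 23 genes with 4 values. The Stmn2 peaks did not form a region common to all 4 libraries, since the summit of TRF2KO replicate 1 was 959 bp and the others were 1799 to 1892 bp downstream of the gene start. Nrxn3, a synaptic adhesion protein, had 8.98, 5.22, 6.404 and 7.94, and Elavl3 had 6.48 to 6.81. L1cam and Calb1 had a peak in 3 libraries, Stmn3 in 3 and Nefm in 1, with folds of 3.06 to 5.52. The gene record of Nefm spans Nefl, so their windows overlap.

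The genes whose libraries separated by genotype depended on the scale. By percentile, both TRF2KO values were below both Control values in 4 of the 23 genes (Grin2a, Kcnh2, Kcnip2 and Dner), against a background of 31% of coding genes, and above them in 2 (Rcor1 and Map2), against 9.12%. By fold, they were below in 5 (Rundc3a, Scg2, Grin2a, Kcnh2 and Kcnip2), against 9.12% of coding genes, and above in 3 (Rcor1, Tubb3 and Map2), against 33.8%. Over all coding genes, more were thus lower in TRF2KO by percentile and more were higher by fold.

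**Figure D3:**
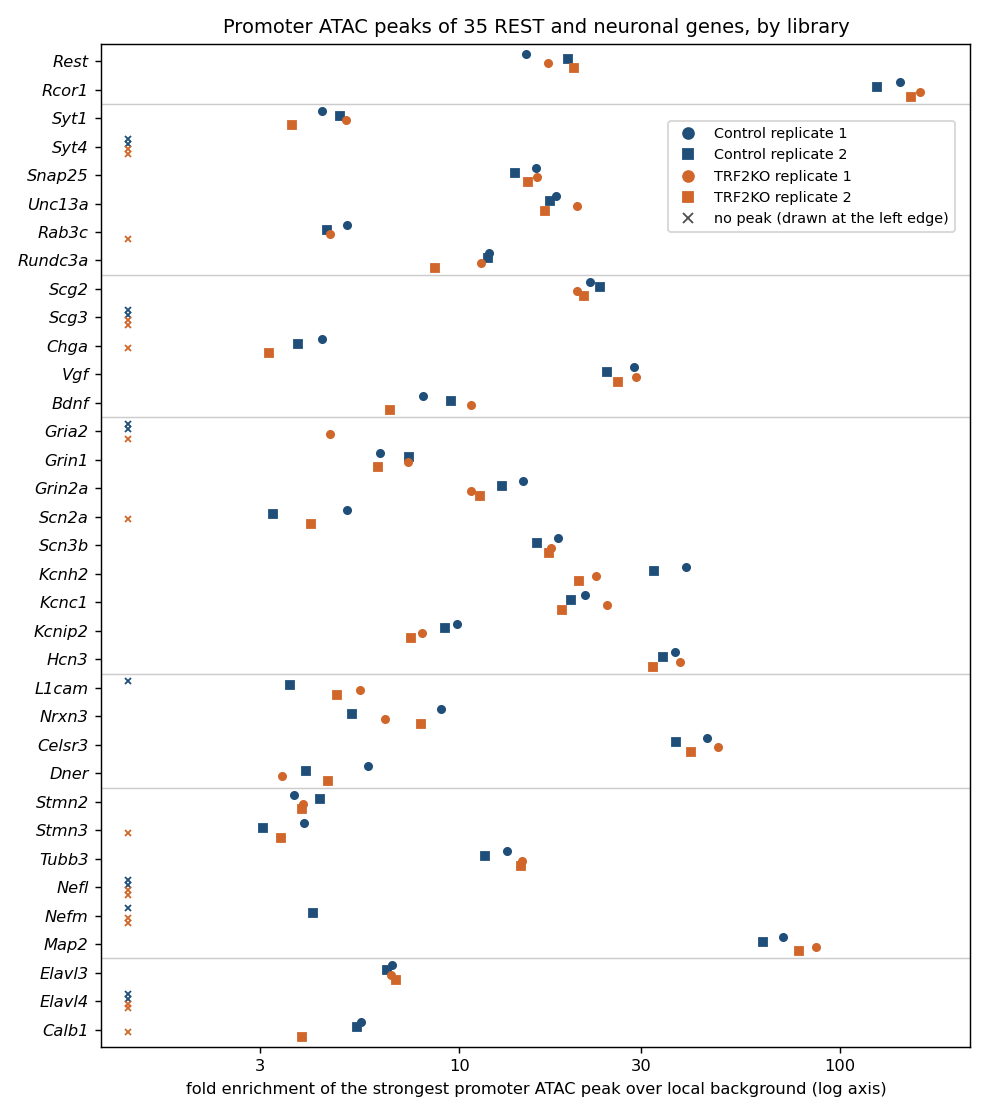
Fold enrichment (log axis) of the strongest promoter ATAC peak of each of the 35 genes, ordered by role with grey lines between roles, in Control (blue) and TRF2KO (orange) libraries (circles, replicate 1; squares, replicate 2), with crosses where no peak was called. Rcor1, Map2 and Celsr3 lie farthest right, and crosses fill all 4 libraries in Syt4, Scg3, Nefl and Elavl4.

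TRF2 peaks of both CUT&Tag libraries were found in the windows of 5 of the 35 genes (14.3%), compared with a background of 28.6% of coding genes, and all 5 lay at promoters. They were Rest, Rcor1, Scn3b, Hcn3 and Nrxn3, so both genes of the repressor complex were among them. At Rest the TRF2 region, chr5:77265539-77266168, overlapped an exon with its centre 343 bp from the start, and had folds of 5.67 and 4.56 in replicates 1 and 2, from 10 and 7 fragments at the summit. At Rcor1, chr12:111038895-111039371, the folds were 7.69 and 11.9 from 19 and 24 fragments. This was the only region of the 5 with a −log10 q of at least 5 in both libraries.

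At Hcn3, chr3:89160137-89160527, the folds were 7.71 and 4.35, from 13 and 7 fragments. At Nrxn3 the region, chr12:89812170-89812628, lay on an exon at an internal start, with folds of 7.03 and 5.79 from 10 and 7 fragments. Scn3b, at chr9:40269539-40269812, was the weakest, with folds of 4.23 and 3.73 from 5 fragments in each library. No IgG peak overlapped these 5 regions, and ATAC peaks of all 4 libraries overlapped each. IgG peaks were found in the window of 1 of the 35 genes (2.86%, compared with 1.26% of coding genes). This was Nrxn3, which has the longest window of the set (1615060 bp), and the peak lay away from its TRF2 region.

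TRF2 can bind DNA that forms G-quadruplexes (G4s), in which runs of guanine stack. The sequence pattern sought, on both strands, was 4 G runs (3 G or longer) that are separated by 1 to 7 bases. It was present in 3 of the 5 regions, compared with 2633 of the 7414 TRF2 regions of both libraries (35.5%), whose median width was 483.5 bp. The shortest match of each region is shown because these runs lie under the TRF2 peaks at the repressor genes, with every run of 3 or more G in capitals and in GRCm38 on the minus strand for Rest (chr5:77265692-77265708) and Rcor1 (chr12:111039333-111039348) and on the plus strand for Hcn3 (chr3:89160242-89160258).
Rest: GGGaGGGGaGGGGaGGG
Rcor1: GGGcGGGGGGGaGGGG
Hcn3: GGGcGGGGcGGGGcGGG
In the Rcor1 sequence the long run was read as a pair of runs with a G between them as the loop, which the pattern allows.

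The share of promoters with TRF2 rose with accessibility over all coding genes, from 5.25% in the lowest of the 5 groups through 16.2%, 32.5% and 52.3% to 81.3% in the highest. Within these groups the members numbered 1 of 12 in the lowest (Nrxn3), 3 of 8 in the second (Rest, Hcn3 and Scn3b), 0 of 1 in the third, 0 of 1 in the fourth and 1 of 1 in the highest (Rcor1). Of the 21 REST cofactor genes 12 had TRF2 peaks of both libraries in the window, and of the 12 other neuronal genes 1 did. No RE1 match of the members lay in a TRF2 peak of both libraries. That of Vgf lay in a peak of TRF2 replicate 2, with a fold of 6.20.

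A TRF2 peak of a single library was much more common. There were 21 such regions, with folds of 3.99 to 7.64, and 14 genes had no other kind. Map2 had a promoter peak in replicate 1 (7.64) and Celsr3 in replicate 2 (7.34), at open promoters. Of these 21 regions 11 overlapped ATAC peaks of all 4 libraries and 5 overlapped none. Counting a peak in either library gave 19 genes (54.3%, compared with 50.5% of coding genes), while requiring a −log10 q of at least 5 in both left Rcor1 alone. The remaining 16 genes had no TRF2 peak in either library. Windows of the 35 genes were longer at the median than those of coding genes (43868 against 20611 bp), and these shares were not adjusted for length.

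**Figure D4:**
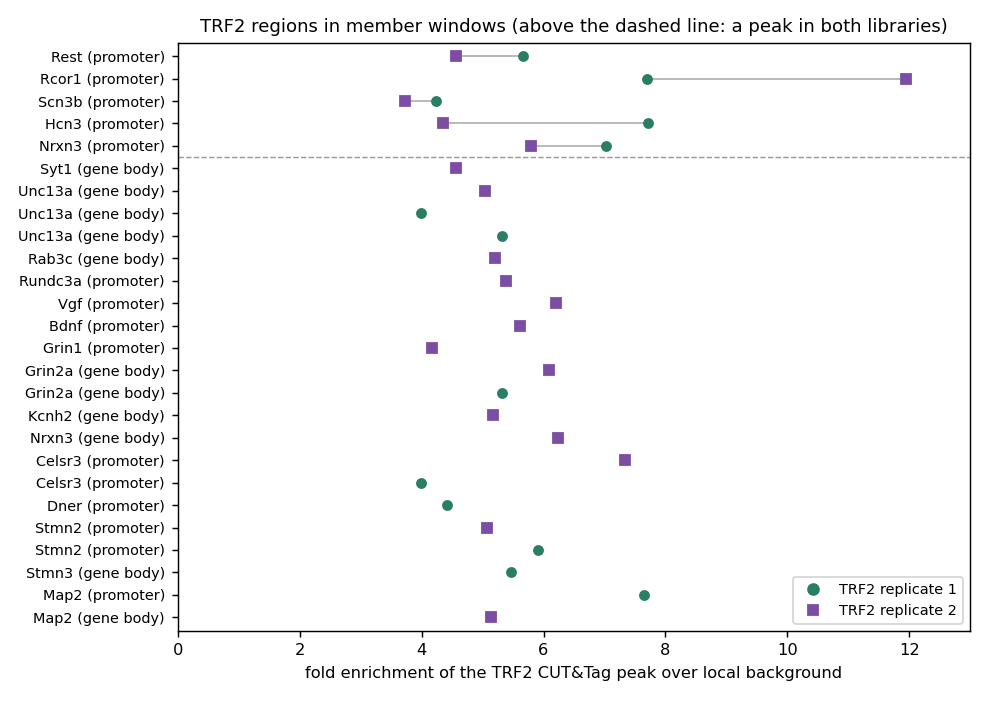
Fold enrichment of TRF2 CUT&Tag peaks in the windows of the members, by region, for replicate 1 (green circles) and replicate 2 (purple squares), with a grey line joining the values where both libraries had a peak. The 5 regions above the dashed line are at the promoters of Rest, Rcor1, Scn3b, Hcn3 and Nrxn3, and Rcor1 has the highest fold, 11.9 in replicate 2.

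The comparison of TRF2KO with Control asked whether accessibility at these genes changed without TRF2. Folds of the 61610 regions found in all 4 libraries were compared on the log2 scale with limma after quantile normalization, with p-values adjusted by Benjamini-Hochberg over all regions. Of the 66 regions of the members, in 24 genes, none passed an adjusted p of 0.05, against a background of 1.24% of all regions lower and 0.682% higher in TRF2KO. At an unadjusted p under 0.05 there were 8 of 66 (12.1%) and 14204 of 61610 (23.1%). The difference was above 0 in 37 regions and below 0 in 29, with a median of 0.09 log2 over the members and 0.02 over all regions.

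At the Rest promoter the difference was 0.23 log2 (SE 0.23, adjusted p = 0.589), and without Control replicate 1 it was −0.052. The mean percentile was 71.9 in Control and 72.6 in TRF2KO (2 libraries each), with p = 1 by a two-sided exact permutation test. With 2 libraries against 2 this test cannot pass a threshold of 0.05. At the Rcor1 promoter the quantile-normalized difference was 0.09 log2 (SE 0.11, adjusted p = 0.670).

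The region nearest to the threshold was at Kcnh2, the hERG potassium channel, around an internal start at chr5:24328413-24330743. Its folds were 39.4 and 32.6 in Control and 20.4 and 20.7 in TRF2KO, and the groups did not overlap. The difference was −0.74 log2 (SE 0.12, adjusted p = 0.0524), and over the alternatives the adjusted p in limma ran from 0.000188 to 0.352. It passed with weak regions left out (0.0425), with no normalization (0.00383) and with an intensity trend in the prior (0.000188). With any 1 library left out the difference stayed between −0.79 and −0.67, while limma called none of the 61610 regions (8617 to 10125 at an unadjusted p under 0.05). Near the start of the Kcnh2 gene record, at chr5:24351710-24353143, the folds were 17.5 and 17.3 in Control and 22.9 and 19.97 in TRF2KO, a difference of 0.40 log2 in the other direction (SE 0.13, adjusted p = 0.146). The 2 starts of the same gene were thus on opposite sides of 0.

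The next was an intronic region of Nrxn3, chr12:88818625-88819742, with folds of 14.0 and 10.3 in Control and 24.0 and 16.6 in TRF2KO. The difference was 0.87 log2 (SE 0.18, adjusted p = 0.0768, range over alternatives 0.00157 to 0.362). At Tubb3, chr8:123411064-123411941, it was 0.36 log2 (SE 0.12, adjusted p = 0.151). At Vgf, in a region downstream of the RE1 match, it was 0.46 log2 (SE 0.16, adjusted p = 0.175), while in the region that holds the match it was 0.12 log2 (SE 0.11, adjusted p = 0.570). At Snap25 the region with the RE1 match differed by 0.19 log2 (SE 0.11, adjusted p = 0.361).

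**Figure D5:**
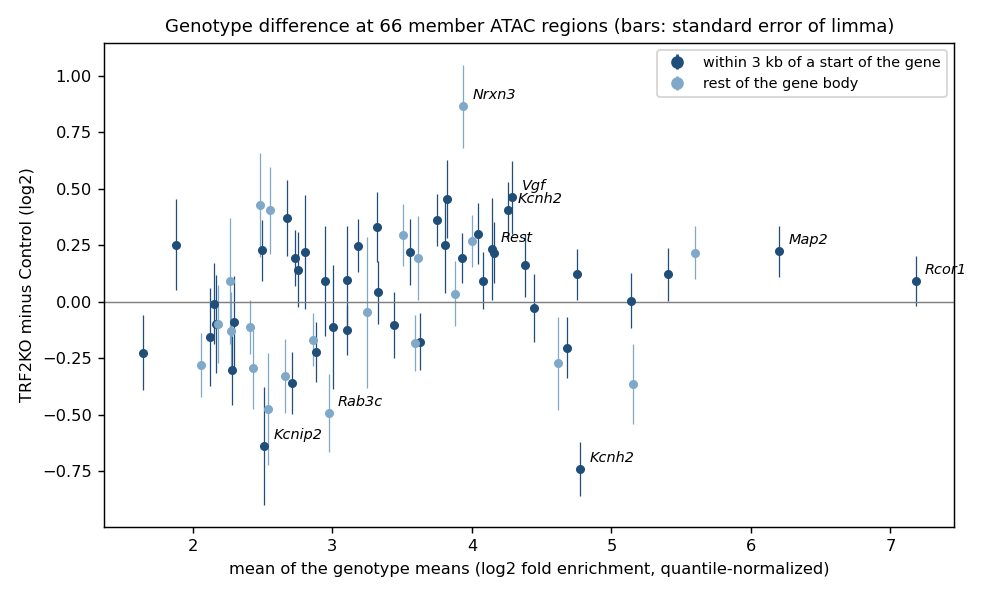
TRF2KO minus Control difference in log2 fold (bars, standard error of limma) against the mean of the genotype means, for the 66 member regions with a peak in all 4 libraries, near a start (dark) or elsewhere in the gene body (light). Most points lie within 0.5 of 0; Kcnh2 at −0.74 and Nrxn3 at 0.87 lie farthest out, and none passed the adjusted threshold.

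Regions called in both libraries of a single genotype and in none of the other were few and weak. There were 4 such regions of Control, 2.96% of the 135 regions of the members against a background of 4.48% of all regions, and 4 of TRF2KO, 2.96% against 1.12%. The Control regions were in an intron of Rcor1 (chr12:111047003-111047219, folds 6.21 and 4.86), an intron of Kcnh2 (chr5:24334747-24335218, 4.37 and 3.06), an exon of Kcnc1 at 98 bp from a start (chr7:46397530-46397962, 4.37 and 3.42) and an intron of Map2 (chr1:66363268-66363634, 2.99 and 3.60). SEACR had a region at the Kcnc1 site in all 4 libraries and at the Kcnh2 site also in TRF2KO replicate 2, and GoPeaks had the Rcor1 region also in TRF2KO replicate 2.

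The TRF2KO regions were in Unc13a (chr8:71665688-71666073, folds 4.12 and 3.18), Kcnip2 (chr19:45796158-45796626, 3.20 and 3.63), Stmn2 (chr3:8510261-8510627, 3.89 and 3.40) and Elavl3 (chr9:22017366-22017595, 3.89 and 5.45). SEACR had the Unc13a region in both Control libraries, and GoPeaks had the Elavl3 region in Control replicate 1. Across the 8 regions the summits held 12 to 26 fragments. With no region of any of the 3 callers in the other genotype, 1 region of Control and 2 of TRF2KO remained of the 4 each. With any 1 library left out, so that a genotype was held by a single list, there were 9 to 25 such regions of Control and 6 to 12 of TRF2KO, the most without Control replicate 1 and without TRF2KO replicate 1.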

How the data were processed

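The authors trimmed CUT&Tag reads with cutadapt 4.4, aligned to mm10 (GRCm38) with Bowtie2 (2.4.4 for CUT&Tag and 2.5.4 for ATAC-seq per the labels; another version in the methods), removed duplicates (Picard 3.1.1) and reads not aligned uniquely, and called peaks with MACS3 (3.0.0 and 3.0.2), SEACR 1.3 and GoPeaks. MACS settings, the handling of transposase offsets in ATAC reads and the use of IgG in peak calling are not given in the sources used here. The deposited MACS lists hold a fold (ratio of summit pileup to background, each plus 1), a −log10 p and a −log10 q. Positions only were used from the deposited SEACR, GoPeaks and DiffBind consensus lists, and the deposited scores were not used. The consensus lists were taken as pooled per genotype.

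Libraries were grouped by their titles. Peaks on chromosomes 1 to 19, X and Y were kept. Summit pileups were solved from fold and p for peaks with a −log10 p under 200, with an error of at most 0.0005. Where a peak was absent the value was treated as missing, and no value was imputed. In limma 3.58.1 (R 4.3.3), tested on simulated data, each library's strongest peak per region was used, with genotype as the only term. Scripts used Python 3.11.15 and sequences of GRCm38.p6.

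The members and gene lists were chosen with earlier results of these data known. Genes named in the text were Rest and Rcor1, those with TRF2 peaks of both libraries, genotype-specific regions, limma calls or RE1 matches in ATAC regions, the 3 highest and 3 lowest promoter percentiles among genes with 4 values, and those without a promoter peak. Others are named by role to account for all 35, and the Nrxn3, Tubb3, Vgf and second Kcnh2 regions by their unadjusted p after values were seen. Alternatives covered normalization, thresholds, callers, windows, mismatches and leaving out each library.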

Additional observations from a re-analysis of the deposited data

How the results depend on the processing

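Of 64 alternative values for 8 results, 32 kept their direction and call or, for counts, stayed near the reported count. The 1181 regions called over the genome became 6039 with no normalization, 1818 with a −log10 q of at least 5, 7555 with an intensity trend in the prior, and 0 with any 1 library left out (8617 to 10125 at an unadjusted p under 0.05). With replicate number as a block limma called 0 regions (13880 at an unadjusted p under 0.05), 0 of them members (11 unadjusted), and changed no other call. Nothing states that same-numbered libraries are paired, and their deviations from the group means correlated at 0.011. The 0 member regions became 5 with no normalization, 1 at the stricter q and 3 with the trend. The Rest difference ranged from −0.052 to 0.52 log2 without a library, the lowest being without Control replicate 1. Promoter peaks in all 4 libraries were found in 13 genes with SEACR. TRF2 peaks were found in 19 genes in either library, 1 at the stricter q, and 12 to 17 without a library. Control-specific regions numbered 1 at the stricter q, 0 with SEACR, 1 with no region of any caller in TRF2KO, 11 by the authors' consensus lists and 9 to 25 without a library. TRF2KO-specific regions numbered 1, 2 (GoPeaks), 0 (SEACR), 2 (no region of any caller in Control) and 6 to 12. The causes were not tested. A lone library in a fit was assumed to vary like the other genotype. Fragments at weak summits, as few as 5 for TRF2, limit what could be seen; a peak not called does not show closed chromatin.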
